A study of Mus musculus with 9 samples.

Results

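The 10 transcription factor genes of mesenchyme and connective tissue examined, Twist1, Twist2, Scx, Snai2, Osr1, Prrx1, Meox1, Meox2, Mkx and Tbx15, were followed through 3 populations of cultured mouse myoblasts. They are 10 of the 47729 genes in the count files and were taken by symbol. The set was chosen by name with its CPM, read counts scaled to library size, in these same 9 libraries already known. Its levels and fold changes are therefore a description, and no p-value is attached to any of the 10. Of the 10, 9 had enough counts for the fit across all genes, and Meox2 did not.

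Connective tissue cells and their progenitors arise from mesoderm and neural crest, and much of their identity is set by DNA-binding proteins of a few families. Twist1, Twist2 and Scx are basic helix-loop-helix (bHLH) proteins, which bind E-box motifs as dimers, usually with an E protein such as Tcf3, Tcf4 or Tcf12. Twist proteins can also oppose the myogenic bHLH factor Myod1, the regulator that commits cells to muscle. Snai2 and Osr1 are zinc finger proteins, Prrx1, Meox1, Meox2 and Mkx carry homeodomains, and Tbx15 has a T-box. In limb and muscle these genes are known from tendon (Scx, Mkx), the connective tissue between muscles (Osr1), limb mesenchyme (Prrx1, Tbx15), somites (Meox1, Meox2) and the transition of epithelial cells to a mesenchymal form (Snai2, Twist1).

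The cells were FVB/N mouse myoblasts, proliferating precursors of muscle fibres, with skeletal muscle given as their source. The 3 groups of 3 libraries were the parental cells (PAR) and reserve cells labelled FRCs Cycle 1 (FRC1) and SRCs Cycle 3 (SRC3), and no genetic change or drug is named for any group. The reserve cells, which stay undifferentiated and mononucleated when a myoblast culture forms myotubes, were grown on under proliferation conditions through 2 passages before harvest, per the labels. No such passages are stated for PAR, so passage history and population cannot be told apart, and the abbreviations FRC and SRC are not spelled out there. FRC1 and SRC3 differ in both label and cycle, and these cannot be told apart either.

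Each library held 13012996 to 14336279 gene counts, and 3 counts in a library equalled 0.209 to 0.231 CPM. The labels do not say that the 3 libraries of a group came from separate cultures, so p-values reflect only how these libraries vary, which may be technical. In RNA from whole cultures, fewer cells of a type and less RNA per cell cannot be told apart. Myoblast markers summed to 3322 to 3406 CPM in PAR, 3179 to 3239 in FRC1 and 2530 to 2707 in SRC3, although Myf5 and Msc, 2 of the 12, lay below 1 CPM in every group.

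Twist2 was higher in FRC1 than in PAR and higher again in SRC3. The total of the 10, most of it Prrx1 and Snai2, was lower in both reserve populations. Summed over the 10 genes, the level was 331.6 ± 8.37 CPM in PAR, 264.8 ± 35.8 in FRC1 and 253.1 ± 6.41 in SRC3 (SD, n = 3). Prrx1 alone gave 49.2, 41.5 and 44.0% of that sum. The lower sum follows Prrx1 (163.05, 109.98 and 111.45 CPM in PAR, FRC1 and SRC3) and Snai2 (90.6, 74.1 and 57.5 CPM). The other factors differed by few CPM and in both directions, so the sum does not describe them. It also adds CPM without regard to gene length. In FRC1 against PAR, edgeR called 4 of the 9 tested factors, Twist2 and Mkx higher and Prrx1 and Snai2 lower, beside 28.3% of all 12540 tested genes (13.6% higher, 14.7% lower). In SRC3 against PAR it called 7, with Twist2, Osr1 and Scx higher and Mkx, Prrx1, Meox1 and Snai2 lower, beside 37.9% of all genes (17.8% higher, 20.2% lower). In SRC3 against FRC1 it called 5, with Twist2 and Osr1 higher and Mkx, Meox1 and Snai2 lower, beside 33.5% of all genes (15.5% higher, 18% lower). The factors were chosen with these values in view, so nothing is read from their counts against those shares. The 3 comparisons also share libraries, and their values are given side by side below. Without FRC1 replicate 3, calls over all genes in FRC1 against PAR dropped from 3550 to 2327.

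**Figure D1:**
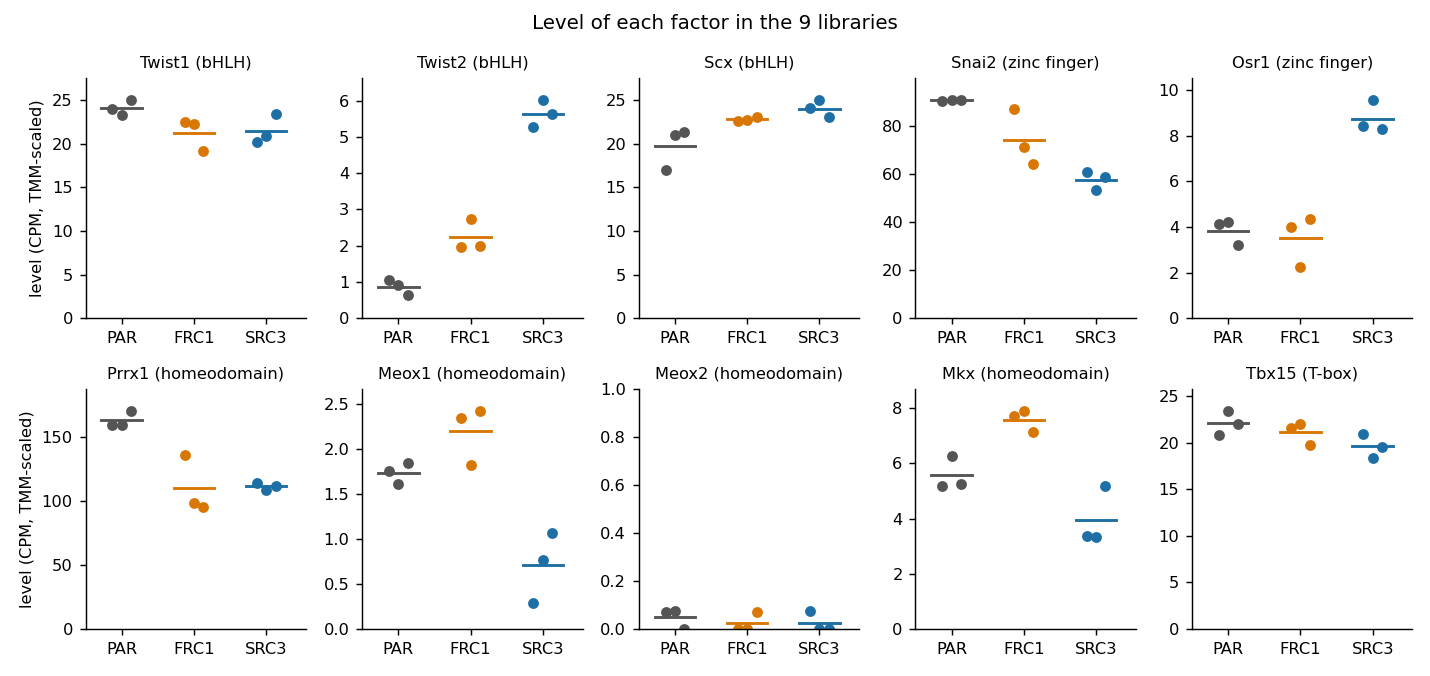
Level of each of the 10 factors in TMM-scaled CPM on a linear axis starting at 0, with 1 point per library and a bar at the group mean. Twist2 goes from 0.869 CPM in PAR to 5.64 in SRC3, Osr1 is high only in the SRC3 libraries among the 9 shown, and Meox2 stays at or under 1 read per library.

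Twist1 and Twist2 are shown with their upstream sequence because they encode closely related proteins, and only Twist2 was clearly higher in the reserve populations. Twist1 lies on chromosome 12 at 33957671 to 33959829 on the plus strand, and Twist2 on chromosome 1 at 91801461 to 91848028 on the plus strand (GRCm38). The 250 bases before each gene's start, chr12:33957421-33957670 and chr1:91801211-91801460, follow 5′ to 3′ from RefSeq (GRCm38.p6). The set of promoter windows used here held 4 of the 10 genes (Twist1, Twist2, Prrx1 and Meox2). Capitals mark matches to the CCAAT box (CCAAT or ATTGG) and the TATA box (TATAAA or TTTATA).
Twist1: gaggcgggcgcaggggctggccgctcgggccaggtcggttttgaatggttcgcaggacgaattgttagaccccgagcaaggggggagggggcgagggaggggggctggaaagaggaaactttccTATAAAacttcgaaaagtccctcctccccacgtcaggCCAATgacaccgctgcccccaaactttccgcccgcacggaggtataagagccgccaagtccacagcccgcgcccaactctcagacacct
Twist2: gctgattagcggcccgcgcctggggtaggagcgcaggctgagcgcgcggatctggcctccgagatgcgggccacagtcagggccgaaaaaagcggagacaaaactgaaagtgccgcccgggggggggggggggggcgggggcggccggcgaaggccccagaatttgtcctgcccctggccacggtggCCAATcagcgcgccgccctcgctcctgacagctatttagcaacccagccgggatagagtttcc
Each window held 1 CCAAT box, found in 33.9% of 32841 promoter windows of that length. Twist1 also held 1 TATAAA, a motif in 12.4% of windows, and no match to either TATA form was found for Twist2. The E-box CANNTG, present in 66.2% of windows, was in neither. Motifs were searched on both strands, the marked matches do not overlap, and a match is only a description of these letters.

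Twist2 was the factor with the largest fold difference in SRC3 against PAR among the 9 fitted. Its level was 1.05, 0.918 and 0.639 CPM in the PAR libraries, 1.97, 2.73 and 1.99 in FRC1, then 5.27, 6.01 and 5.62 in SRC3. Every FRC1 library lay above every PAR library, and every SRC3 library above both other groups. The fitted level was 2.56-fold higher in FRC1 than in PAR (log2 fold change 1.36, SE 0.27), 6.43-fold higher in SRC3 than in PAR (2.68, SE 0.23) and 2.51-fold higher in SRC3 than in FRC1 (1.33, SE 0.20). These values rest on few reads, 36 in PAR, 93 in FRC1 and 224 in SRC3 over 3 libraries each. The antisense gene Gm29100 shares 1477 exon bases with Twist2, and 45.7% of the 50-base stretches of Twist2 exons also lie in it. Gm29100 itself had 3, 9 and 16 reads in the 3 groups. Without a stated strand setting it is not known how reads in the shared bases were counted.

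Twist1, which keeps mesenchymal progenitors undifferentiated in limb and skull, was by contrast nearly level. Its CPM was 24.0, 23.3 and 25.0 in PAR, 22.5, 22.2 and 19.2 in FRC1, then 20.1, 20.9 and 23.4 in SRC3. The FRC1 libraries all lay below the PAR libraries, whereas SRC3 overlapped with PAR through its replicate 3. The log2 fold changes were −0.18 (SE 0.088) in FRC1 and −0.17 (SE 0.089) in SRC3 against PAR, and 0.01 (SE 0.090) between the reserve populations. Twist2 therefore took 3.49 ± 0.886% of the CPM of the pair in PAR, 9.47 ± 1.44% in FRC1 and 20.8 ± 1.49% in SRC3 (SD, n = 3). Per kilobase of exon those shares were 1.82, 5.09 and 11.9%, so Twist1 remained the more abundant transcript of the pair in all 3 populations.

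Scx, the early transcription factor of tendon progenitors, differed little. It lies on chromosome 15 at 76457452 to 76459458 (plus strand), inside the span of Bop1 but without shared exon bases. Its level was 17.0, 20.96 and 21.3 CPM in PAR, 22.6, 22.7 and 23.1 in FRC1, then 24.0, 25.0 and 23.0 in SRC3. Both reserve populations lay above every PAR library and overlapped with each other, with PAR replicate 1 the lowest of the 9. The difference was 1.15-fold in FRC1 (log2 fold change 0.21, SE 0.091) and 1.22-fold in SRC3 against PAR (0.28, SE 0.091), and 0.07 (SE 0.089) on the log2 scale between the reserve populations. The call in SRC3 against PAR was lost without PAR replicate 1. Bop1, a ribosome biogenesis gene, was at 190.0, 200.7 and 190.8 CPM and was not called in any of the 3 comparisons (adjusted p 0.38, 0.95 and 0.41).

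**Figure D2:**
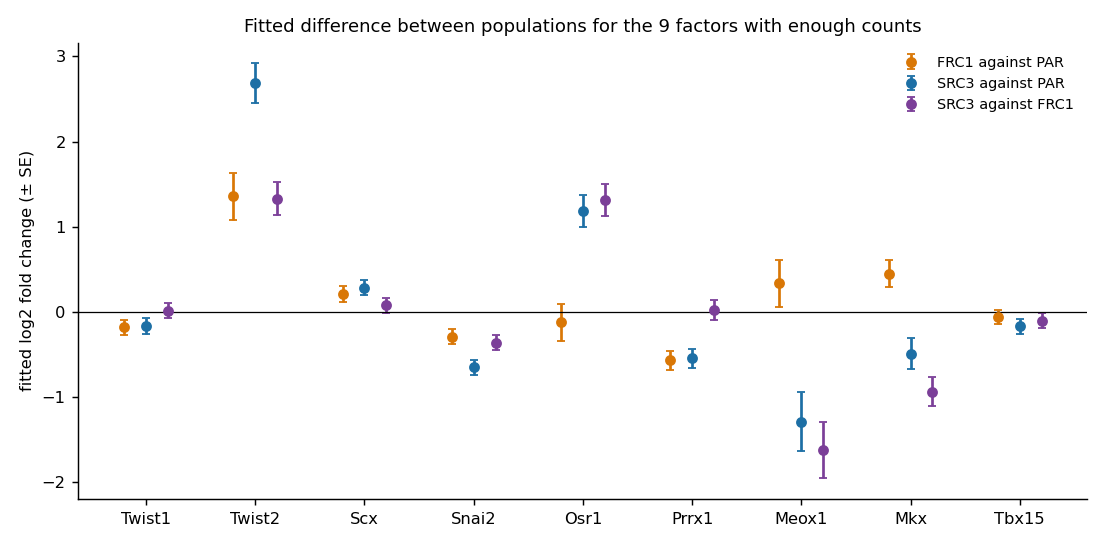
Fitted log2 fold change with its standard error for the 9 factors with enough counts, in FRC1 against PAR, SRC3 against PAR and SRC3 against FRC1, with the line at 0 marking no difference. Twist2 lies above 0 in all 3 comparisons, Snai2 below 0 in all 3, and Mkx above 0 in FRC1 against PAR but below it in SRC3 against PAR.

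Snai2 (Slug), a zinc finger repressor that silences epithelial genes such as the one for E-cadherin, was lower in both reserve populations. The gene lies on chromosome 16 at 14705852 to 14709385, plus strand. Its level was 90.4, 90.7 and 90.7 CPM in PAR, 86.8, 71.2 and 64.3 in FRC1, then 60.7, 53.2 and 58.7 in SRC3. The 3 groups did not overlap, and FRC1 was the most scattered, with its replicate 1 close to PAR. The fitted level was 1.22-fold lower in FRC1 (log2 fold change −0.29, SE 0.085) and 1.57-fold lower in SRC3 than in PAR (−0.65, SE 0.087), and 1.29-fold lower in SRC3 than in FRC1 (−0.36, SE 0.088). The FRC1 call was lost without PAR replicate 3, FRC1 replicate 2 or FRC1 replicate 3.

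Its paralog Snai1, another repressor of epithelial genes, was not among the 10 and moved the other way. Snai1 was at 6.85, 8.11 and 10.2 CPM in PAR, 14.01, 17.9 and 15.6 in FRC1, then 13.9, 12.3 and 14.9 in SRC3. It rose 1.89-fold in FRC1 (log2 fold change 0.92, SE 0.14, adjusted p 4.6e-05) and 1.64-fold in SRC3 (0.71, SE 0.14, adjusted p 0.00038) against PAR, with all 3 libraries of each above PAR. SRC3 against FRC1 did not pass (−0.21, SE 0.13, adjusted p 0.22). Snai1 made up 8.44 ± 1.53% of the CPM of the Snai1 and Snai2 pair in PAR, 17.8 ± 3.43% in FRC1 and 19.2 ± 0.866% in SRC3 (SD, n = 3). Snai2 was still the larger part of the pair in every library, also per kilobase, where Snai1 took 10.3, 21.3 and 22.9%.

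Osr1, a zinc finger gene of intermediate mesoderm and of muscle connective tissue progenitors, was high in SRC3 alone among the 3 populations. It lies on chromosome 12 at 9570116 to 9581500, plus strand. The PAR libraries had 4.13, 4.21 and 3.20 CPM, the FRC1 libraries 4.01, 2.24 and 4.34, and the SRC3 libraries 8.43, 9.56 and 8.28. PAR and FRC1 overlapped, and each SRC3 library lay above all 6 of them. The level in SRC3 was 2.28-fold that of PAR (log2 fold change 1.19, SE 0.19) and 2.48-fold that of FRC1 (1.31, SE 0.19), and FRC1 against PAR was at −0.13 (SE 0.21). Its paralog Osr2 had 1 read in all 9 libraries together.

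Prrx1, a homeodomain factor of limb bud mesenchyme and fibroblast progenitors, had the most reads of the 10 and was lower in both reserve populations. It lies on chromosome 1 at 163245119 to 163313710, minus strand. Its level was 159.2, 159.5 and 170.4 CPM in PAR, 135.8, 98.7 and 95.4 in FRC1, then 113.7, 108.7 and 111.9 in SRC3. All 6 reserve libraries lay below PAR, and FRC1 spanned the whole range of SRC3 because its replicate 1 was high. The fitted level was 1.48-fold lower in FRC1 (log2 fold change −0.57, SE 0.11) and 1.46-fold lower in SRC3 than in PAR (−0.55, SE 0.11), with 0.02 (SE 0.12) between the reserve populations. Without FRC1 replicate 1 the difference from PAR was 1.68-fold, and Prrx1 was then also called in SRC3 against FRC1.

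Prrx2, the other gene of this family, was at 71.3 ± 2.46 CPM in PAR, 68.1 ± 0.699 in FRC1 and 70.0 ± 4.14 in SRC3 (SD, n = 3). It did not pass in any comparison (adjusted p 0.42, 0.75 and 0.65). Its share of the CPM of the pair was 30.4 ± 0.974% in PAR, 38.6 ± 4.76% in FRC1 and 38.6 ± 1.51% in SRC3. Per kilobase of exon, Prrx2 was the larger part of the pair at 71.2, 77.8 and 78.0%. These shares depend on the length taken for Prrx1, 11066 bases over all exons but 6527 in its longest transcript. With the latter its level in PAR was 24.98 per kilobase in place of 14.7, and the share at that length was not computed.

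**Figure D3:**
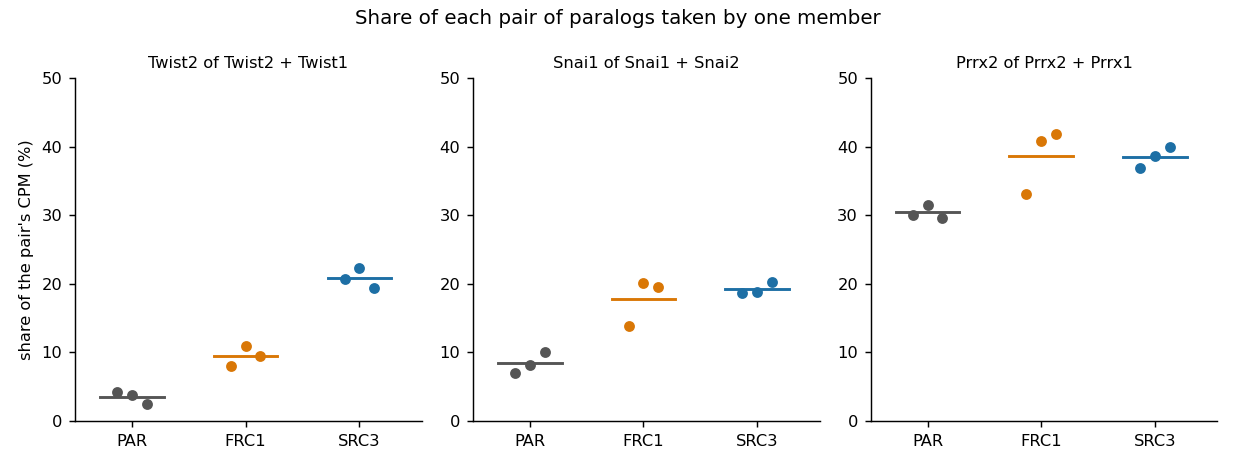
Share, in percent of the summed CPM of 2 paralogs, of Twist2 with Twist1, Snai1 with Snai2 and Prrx2 with Prrx1, with 1 point per library and a bar at the group mean. In each pair the share is higher in both reserve populations than in PAR, from 3.49 to 20.8% for Twist2 and from 8.44 to 19.2% for Snai1 in SRC3.

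Meox1, a homeodomain gene of somites and of the early muscle lineage, was low throughout and lowest in SRC3. It lies on chromosome 11 at 101877510 to 101894374, minus strand. Its level was 1.75, 1.61 and 1.85 CPM in PAR, 2.35, 1.82 and 2.42 in FRC1, then 0.293, 0.771 and 1.06 in SRC3. FRC1 overlapped with PAR, and the SRC3 libraries all lay below both. The fitted level was 2.45-fold lower in SRC3 than in PAR (log2 fold change −1.29, SE 0.35) and 3.08-fold lower than in FRC1 (−1.63, SE 0.33), while FRC1 against PAR was at 0.33 (SE 0.27). Only 72, 91 and 28 reads stood behind the 3 groups. Meox2, its paralog on chromosome 12 at 37108540 to 37179534 (plus strand), had 2, 1 and 1 reads, at most 0.0765 CPM in a library, and no fold is given.

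Mkx (Mohawk), a homeodomain factor of tendon that represses muscle genes, lay above PAR in every FRC1 library and below PAR in every SRC3 library. How many of all tested genes share that pattern was not counted, so nothing is read from it. The gene is on chromosome 18 at 6934518 to 7004780, minus strand. Its level was 5.18, 6.27 and 5.25 CPM in PAR, 7.72, 7.90 and 7.12 in FRC1, then 3.37, 3.31 and 5.16 in SRC3. FRC1 was separate from both other groups, whereas SRC3 replicate 3 (5.16 CPM) lay just under the lowest PAR library (5.18 CPM). The fitted level was 1.36-fold higher in FRC1 (log2 fold change 0.45, SE 0.16) and 1.41-fold lower in SRC3 than in PAR (−0.49, SE 0.18), and 1.92-fold lower in SRC3 than in FRC1 (−0.94, SE 0.17). DESeq2 called neither difference from PAR. The FRC1 call was also lost without PAR replicate 1, PAR replicate 3 or any FRC1 replicate, and the SRC3 call without any PAR replicate, SRC3 replicate 1 or SRC3 replicate 2.

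Tbx15, a T-box gene of limb and trunk mesenchyme that is also active in fast muscle fibres, was the most even of the fitted factors together with Twist1 and Scx. It lies on chromosome 3 at 99240381 to 99354259, plus strand. Its level was 20.8, 23.4 and 22.01 CPM in PAR, 21.6, 22.02 and 19.7 in FRC1, then 20.95, 18.3 and 19.5 in SRC3. All 3 groups overlapped. The log2 fold changes were −0.06 (SE 0.087), −0.17 (SE 0.088) and −0.11 (SE 0.088) in FRC1 against PAR, SRC3 against PAR and SRC3 against FRC1.

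Levels can be compared between genes only per length, as CPM per kilobase of exon in GENCODE M21. On that scale Snai2 led in every population, at 44.8 in PAR, 36.7 in FRC1 and 28.5 in SRC3, and in PAR it stood above 90.6% of all tested genes. In PAR it was followed by Twist1 (14.8) and Prrx1 (14.7), whose libraries overlapped, then Scx (9.84), Tbx15 (5.89), Osr1 (1.86), Mkx (1.36), Meox1 (0.778) and Twist2 (0.274). In FRC1, Scx (11.4) and Prrx1 (9.94) overlapped, as did each neighbouring pair among Mkx (1.85), Osr1 (1.71), Meox1 (0.985) and Twist2 (0.702). In SRC3, Twist1 (13.2) and Scx (12.0) overlapped, followed by Prrx1 (10.1), Tbx15 (5.23), Osr1 (4.24), Twist2 (1.78), Mkx (0.964) and Meox1 (0.318). Twist2 thus went from the lowest of the 9 fitted factors in PAR to a place above Mkx and Meox1 in SRC3, with libraries that did not overlap theirs. With the longest transcript in place of all exons, Prrx1 moved up to rank 2 in each population.

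**Figure D4:**
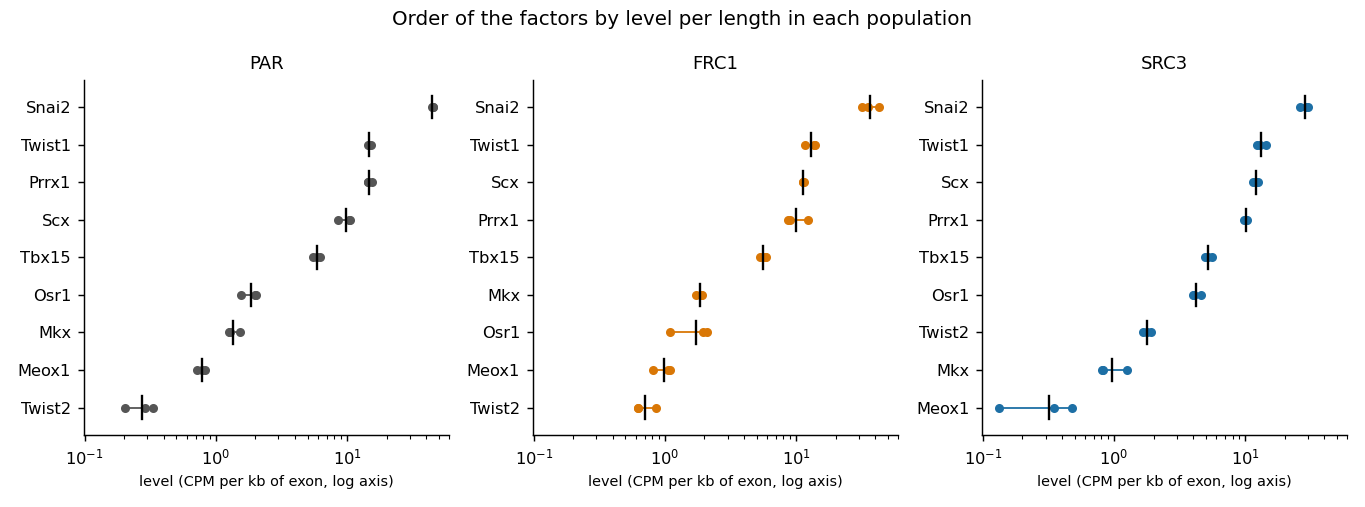
Level per kilobase of exon, on a log axis, of the 9 fitted factors in each population, sorted by the group mean, with 1 point per library, a line over their range and a black tick at the mean. Snai2 is at the top of every panel, and Twist2 moves from the bottom in PAR (0.274) to above Mkx and Meox1 in SRC3 (1.78).

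For each fitted factor the 2 most similar of 10815 other tested genes were found by the root mean square difference of centred log2 CPM over the 9 libraries, where smaller is more alike. Twist2 was closest to Npr3, a natriuretic peptide clearance receptor (0.14; 5.05, 11.8 and 28.3 CPM in PAR, FRC1 and SRC3), and to Slc6a17, a neutral amino acid transporter (0.21; 3.39, 7.70 and 18.7 CPM). Mkx was closest to Fkbp14, an endoplasmic reticulum prolyl isomerase (0.15; 17.8, 24.2 and 12.1 CPM), and to Nabp1, a single-stranded DNA binding protein (0.16; 65.7, 85.9 and 46.7 CPM). Osr1 was closest to Rab36 (0.14) and Tvp23a (0.22), and Meox1 to Strip2 (0.24) and Il15ra (0.27). Snai2 was closest to the Hippo pathway kinase Lats2 (0.07; 120.7, 102.8 and 79.9 CPM) and to Spata6 (0.08). Prrx1 was closest to Spg20 (0.08) and Gprc5b (0.08), Twist1 to Rps6ka3 (0.03) and Vcpip1 (0.04), Scx to Qtrt1 (0.04) and Rps19bp1 (0.06), and Tbx15 to genes that include Rac1 (0.05). These are nearest neighbours in level only, and even genes reach small differences easily.

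The dimer partners and rivals of the bHLH factors moved in both directions. Of 26 genes on a list of bHLH partners, inhibitors and relatives, 10 were tested and 8 had no read. Calls made up 50, 60 and 70% of the 10 in FRC1 against PAR, SRC3 against PAR and SRC3 against FRC1. Over all tested genes those shares were 28.3, 37.9 and 33.5%. This list and those below were chosen with earlier results known, so nothing is read from their shares. In FRC1 against PAR 2 rose and 3 fell (median log2 fold change 0.04, 0.003 over all tested genes), in SRC3 against PAR 2 rose and 4 fell (−0.21, 0.006 over all), and in SRC3 against FRC1 2 rose and 5 fell (−0.09, −0.0003 over all). Among the E proteins, Tcf12 fell 1.20-fold in FRC1 against PAR (238.9 to 198.4 CPM, adjusted p 0.00023) and Tcf4 1.45-fold (63.2 to 43.7 CPM, adjusted p 0.0068), whereas Tcf3 was at 231.1, 232.4 and 239.6 CPM and passed in no comparison. Of the Id proteins, which sequester E proteins, Id2 rose 1.47-fold in SRC3 against PAR (adjusted p 1.7e-06) and Id3 fell 1.47-fold in SRC3 against FRC1 (adjusted p 2e-08).

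That list also held the myogenic genes. Myog, the factor of terminal muscle differentiation, was at 0.573 ± 0.193 CPM in PAR, 8.96 ± 1.58 in FRC1 and 1.61 ± 0.563 in SRC3 (SD, n = 3). It rose 15.3-fold in FRC1 (adjusted p 7.2e-09) and 2.75-fold in SRC3 against PAR (adjusted p 0.0037). Myod1 fell 1.44-fold in SRC3 against PAR (775.7 to 539.1 CPM, adjusted p 6.9e-09) and was at 770.1 CPM in FRC1. Bhlhe41, a repressor of the circadian clock family, fell 1.98-fold in FRC1 (adjusted p 1.2e-06) and 1.82-fold in SRC3 (adjusted p 1.4e-06) against PAR, and its relative Bhlhe40 was 1.54-fold lower in SRC3 than in FRC1 (adjusted p 0.0014).

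Of 86 other mesenchymal and limb transcription factors, 54 were tested and 12 had no read. In the order of comparisons below, 42.6, 55.6 and 53.7% of the 54 were called, beside 28.3, 37.9 and 33.5% of all tested genes. In FRC1 against PAR 11 rose and 12 fell (median −0.06), in SRC3 against PAR 10 rose and 20 fell (−0.02), and in SRC3 against FRC1 11 rose and 18 fell (−0.07). The FRC1 calls against PAR, 23 in all, numbered 13 without FRC1 replicate 3 and 15 without PAR replicate 3. Runx3, a Runt domain factor, was 7.10-fold higher in SRC3 than in PAR (1.91 to 13.6 CPM, adjusted p 4.6e-11). Gli2, a transcription factor of Hedgehog signalling, had 169 reads in PAR and 154 in FRC1 but 0 in SRC3, at least 54.1-fold and 49.2-fold lower when SRC3 is set to a floor of 3 counts in all. Lbx1, a homeobox gene of migrating limb muscle precursors, had 120 reads in PAR, 56 in FRC1 and 3 in SRC3. That is a ratio of 38.4 between PAR and SRC3 (95% interval 12.8 to 188.8, counting error only), or 75.7 without SRC3 replicate 1, and of 17.9 between FRC1 and SRC3 (5.81 to 89.3), or 35.2 without that library.

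Six2, Eya1 and Eya4 are of families whose proteins act together upstream of the myogenic factors. Six2 was lower than PAR in both reserve populations, whereas Eya1 is given for FRC1 against PAR only and Eya4 for SRC3 against FRC1 only. Six2 went from 2.85 CPM in PAR to 1.58 in FRC1 and 0.150 in SRC3, 17.9-fold lower in SRC3 than in PAR (adjusted p 2.7e-07). Its fall in FRC1 (1.79-fold, adjusted p 0.024) was lost with DESeq2 and without PAR replicate 1, PAR replicate 2, FRC1 replicate 1 or FRC1 replicate 2 (adjusted p 0.0607 to 0.128). Eya1 fell 1.63-fold in FRC1 against PAR (80.3 to 49.1 CPM, adjusted p 2.9e-07). Eya4 was 4.49-fold lower in SRC3 than in FRC1 (1.27 to 0.279 CPM, adjusted p 0.0016), or 8.05-fold without SRC3 replicate 3. Zeb2, a zinc finger repressor that like Snai2 acts on E-cadherin, fell 1.13-fold in FRC1 (adjusted p 0.013) and 1.18-fold in SRC3 (adjusted p 0.0011), and Zeb1 was at 28.1, 28.3 and 29.1 CPM and passed in no comparison. Prrx2, Tcf3, Zeb1 and Zeb2 were named for their kinship or dimerization with the 10, after their values were seen.

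Genes of the epithelial-mesenchymal transition, the process Snai2 and Twist1 are known for, were mixed. Of 45 listed, 21 were tested, with 7 rising and 9 falling in FRC1 against PAR (median log2 fold change 0.09), 5 and 9 in SRC3 against PAR (−0.08), then 6 and 7 in SRC3 against FRC1 (−0.11). In that order, 76.2, 66.7 and 61.9% of the 21 were called, beside 28.3, 37.9 and 33.5% of all tested genes. The epithelial genes Pkp3, for a desmosomal protein, and Krt18, a keratin, rose 6.00-fold (1.05 to 6.28 CPM, adjusted p 1.7e-08) and 3.55-fold (1.01 to 3.63 CPM, adjusted p 1.3e-05) in SRC3 against PAR, while Cdh1, which encodes E-cadherin, had no read. Other epithelial genes of the list went the other way in that comparison: Krt19, a keratin, fell 1.70-fold (49.1 to 28.9 CPM, adjusted p 0.0059) and Tjp1, for a tight junction protein, 1.42-fold (247.2 to 174.5 CPM, adjusted p 1.5e-07), both named after their values were seen. The matrix protease Mmp2 fell 2.73-fold in SRC3 against PAR (98.1 to 35.9 CPM, adjusted p 4.3e-12), and fibronectin (Fn1) fell 1.79-fold (696.7 to 389.0 CPM, adjusted p 0.011). In FRC1 against PAR, Tgfbr2, a TGF-beta receptor, fell 1.52-fold (151.8 to 99.8 CPM, adjusted p 2.2e-07) and the proteoglycan gene Spock1 fell 2.65-fold (adjusted p 2.8e-06). Krt19 also fell in FRC1 against PAR, 1.52-fold (adjusted p 0.024), a call lost without any PAR replicate, FRC1 replicate 2 or FRC1 replicate 3 (adjusted p 0.0548 to 0.0848).

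Tendon and matrix genes, among them targets of Scx and Mkx, differed between the reserve populations. Of 47 listed, 46 were in the files, 19 were tested and 10 had no read, the tendon protein gene Tnmd among them. In the order of comparisons below, 47.4, 68.4 and 68.4% of the 19 were called, beside 28.3, 37.9 and 33.5% of all tested genes. In FRC1 against PAR 6 rose and 3 fell (median log2 fold change 0.14), in SRC3 against PAR 4 rose and 9 fell (−0.43), and in SRC3 against FRC1 3 rose and 10 fell (−0.25). Tenascin C (Tnc) was at 660.2, 707.8 and 688.4 CPM in PAR, 1200, 1707 and 1590 in FRC1, then 344.4, 472.7 and 293.4 in SRC3. It rose 2.19-fold in FRC1 against PAR (adjusted p 0.0080) and was 4.05-fold lower in SRC3 than in FRC1 (adjusted p 0.00045). The collagen crosslinking enzyme Lox rose 2.39-fold (adjusted p 0.0058) and Col12a1 1.92-fold (adjusted p 0.0051) in FRC1 against PAR. Fibrillin 1 (Fbn1) fell 4.86-fold in SRC3 against PAR (49.1 to 10.1 CPM, adjusted p 8.1e-14). In the same comparison the protease gene Htra3 rose 3.63-fold (adjusted p 3.9e-06) and Col6a3 5.83-fold, from 0.171 to 1.03 CPM (adjusted p 0.00025). The PAR level of Col6a3 lay below that of 3 counts in a library. Genes named by size of change for SRC3 against PAR mostly rose (Htra3, Col6a3 and, below, Ctgf), whereas more of the list fell (9) than rose (4).

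The growth factor gene Ctgf, on the same list, was low and scattered, at 0.382 CPM in PAR, 2.06 in FRC1 and 1.81 in SRC3. It passed in FRC1 against PAR (5.30-fold, adjusted p 0.027) and in SRC3 against PAR (4.61-fold, adjusted p 0.035). The FRC1 fold was 2.71 without FRC1 replicate 2 and 9.06 without PAR replicate 1, and its call was lost without PAR replicate 2 or PAR replicate 3 and in the fit of the 2 groups alone (adjusted p 0.0857 to 0.0871). The SRC3 fold was 7.92 without PAR replicate 1, and its call was lost without PAR replicate 2, PAR replicate 3 or any SRC3 replicate (adjusted p 0.0703 to 0.103). Col1a1 and Col1a2, the chains of type I collagen that make up most of tendon, had 34 and 50 reads over all 9 libraries.

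Of 32 markers of muscle connective tissue fibroblasts and fibro-adipogenic progenitors, 12 were tested. In the order of comparisons below, 50, 66.7 and 50% of the 12 were called, beside 28.3, 37.9 and 33.5% of all tested genes. In FRC1 against PAR 1 rose and 5 fell (median log2 fold change −0.11), in SRC3 against PAR 5 rose and 3 fell (0.09), and in SRC3 against FRC1 4 rose and 2 fell (0.38). Igfbp6, an insulin-like growth factor binding protein, was at 6.01, 6.66 and 5.89 CPM in PAR, 4.09, 3.50 and 4.13 in FRC1, then 28.9, 31.3 and 29.8 in SRC3. It fell 1.58-fold in FRC1 (adjusted p 0.0013) and rose 4.85-fold in SRC3 (adjusted p 7e-13) against PAR. The surface protein Cd34 rose 3.75-fold in SRC3 against PAR (1.14 to 4.28 CPM, adjusted p 1.3e-05). The guidance factor Sema3c was 2.50-fold higher in SRC3 than in FRC1 (adjusted p 0.00026). All genes named by size of change for SRC3 against PAR (Igfbp6, Cd34, Smoc2 and Adam12) rose, so the 3 that fell are not among them. Ly6a, given below for FRC1, was at 2.86 CPM in PAR and 1.57 in SRC3. Efemp1, a fibulin, fell 4.46-fold in FRC1 (1.65 to 0.363 CPM, adjusted p 0.00085), or 7.28-fold without FRC1 replicate 3.

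Other calls on this list depended on single libraries, and without any PAR replicate the 8 calls in SRC3 against PAR came down to 5. Smoc2, a matricellular protein, rose 3.78-fold in SRC3 against PAR (8.01 to 30.4 CPM, adjusted p 0.022), and the call was lost without any PAR replicate or SRC3 replicate 3 (adjusted p 0.0592 to 0.0736). Ly6a, which encodes Sca-1, fell 1.77-fold in FRC1 (adjusted p 0.028), lost with DESeq2 and without PAR replicate 2, PAR replicate 3 or any FRC1 replicate (adjusted p 0.0599 to 0.113). The protease Adam12 rose 13.1-fold in FRC1 (0.247 to 3.24 CPM, adjusted p 0.0012), or 21.8-fold without PAR replicate 2. Its rise in SRC3 (5.25-fold, adjusted p 0.029) was 8.78-fold without PAR replicate 2 and was lost without PAR replicate 1, PAR replicate 3 or any SRC3 replicate (adjusted p 0.0593 to 0.0951).

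**Figure D5:**
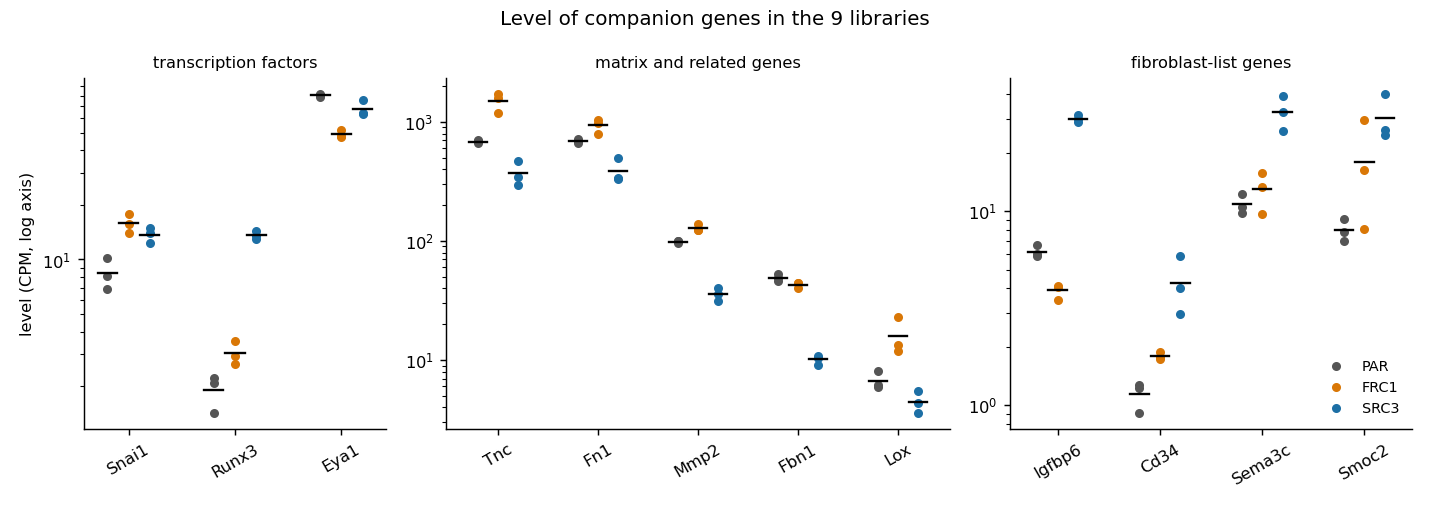
Level in CPM, on a log axis, of genes of the companion lists that the naming rule selected, with 1 point per library and a black bar at each group mean. Igfbp6, Cd34 and Runx3 are highest in SRC3, Tnc, Fn1, Mmp2 and Lox are highest in FRC1 and lowest in SRC3, and Snai1 is lowest in PAR.

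Of 29 genes in the files that lie beside or overlap the 10 factors, 12 were tested, with 2 rising and 2 falling in FRC1 against PAR, 1 and 2 in SRC3 against PAR, then 1 and 4 in SRC3 against FRC1, beside 28.3, 37.9 and 33.5% of all tested genes called in either direction, so nothing about neighbours is read from these counts. The 4 calls in FRC1 against PAR came down to 1 or 2 without PAR replicate 1, PAR replicate 3, FRC1 replicate 2 or FRC1 replicate 3, and the 5 in SRC3 against FRC1 to 3 without FRC1 replicate 3 or SRC3 replicate 1. Beside Twist2, the histone deacetylase gene Hdac4 fell 1.27-fold in SRC3 against PAR (adjusted p 0.0026) and 1.19-fold in FRC1 (adjusted p 0.030), the latter lost without PAR replicate 1, PAR replicate 3, FRC1 replicate 2 or FRC1 replicate 3 (adjusted p 0.0689 to 0.142). On its other side Asb1 was 1.26-fold lower in SRC3 than in FRC1 (adjusted p 0.014), lost without replicate 2 or 3 of FRC1 or replicate 1 or 3 of SRC3 (adjusted p 0.0506 to 0.0619). Hdac9, beside Twist1, had too few reads to test.

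Beside Meox1, the ETS factor Etv4 rose 1.22-fold in SRC3 against PAR (adjusted p 0.00012). Its other neighbour Sost, a secreted WNT inhibitor, had 2 reads in PAR, 44 in FRC1 and 1 in SRC3, which gives a ratio of 21.9 (95% interval 5.73 to 186.9) between FRC1 and PAR and of 42.1 (7.18 to 1702) between FRC1 and SRC3, the latter at least 9.4 without SRC3 replicate 3. Ispd, beside Meox2, fell 1.45-fold in SRC3 against PAR (adjusted p 0.012), a call lost without SRC3 replicate 2 (adjusted p 0.055). Beside Scx, the heat shock factor gene Hsf1 rose 1.15-fold in FRC1 against PAR (adjusted p 0.010), lost without PAR replicate 1 or FRC1 replicate 3 (adjusted p 0.0565 to 0.0726). Beside Mkx, the small GTPase gene Rab18 fell 1.26-fold in FRC1 against PAR (adjusted p 0.041), a call that 5 single libraries of these groups, SRC3 replicate 1 and library sizes alone each removed (adjusted p 0.0547 to 0.109).

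Markers of other cells that a muscle culture could hold were summed as well, and their part in the levels above was not tested. Tenocyte markers summed to 1.25 to 4.13 CPM over the 9 libraries, with Tnmd, Fmod, Kera and Chad, 4 of 8, at 0. Those of fibro-adipogenic progenitors summed to 16.1 to 17.96 CPM in PAR, 15.1 to 36.0 in FRC1 and 36.8 to 48.4 in SRC3, with Lum at 0 and Dpt, Pi16, Mfap5, Clec3b and Dcn below 1 CPM in every group. Most of that difference was Smoc2, at a mean of 8.01, 17.99 and 30.4 CPM, while Ly6a was at 2.86, 1.61 and 1.57 and Pdgfra at 4.55, 3.02 and 4.34. Pericyte and smooth muscle markers summed to 30.2 to 31.7, 49.7 to 69.6 and 12.6 to 14.3 CPM, of which 7 of 9 were below 1 CPM and Mcam and Notch3 gave the rest. Schwann cell markers summed to 6.66 to 9.86, 6.99 to 8.97 and 24.9 to 45.2 CPM, with Sox10, S100b and Foxd3, 3 of 8, at 0, and Ngfr, at 0.695, 0.126 and 19.4 CPM, gave most of the sum in SRC3. Adipocyte markers summed to 51.2 to 52.5, 33.2 to 37.4 and 47.0 to 54.3 CPM, of which Lpl was 48.5, 30.8 and 41.5, with Plin1, Cidec and Lep, 3 of 8, at 0. Epithelial markers summed to 49.0 to 52.2, 30.3 to 38.5 and 24.3 to 39.2 CPM, nearly all of it Krt19, with Cdh1 at 0 and 6 of 8 below 1 CPM. Macrophage and leukocyte markers, 7 of 8 in the files, summed to 6.11 to 7.69 CPM over the 9 libraries, with Adgre1 and Lyz2 at 0. Endothelial markers, 8 of 8, were below 1 CPM in each group.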

How the data were processed

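Polyadenylated RNA of 9 myoblast libraries was sequenced as single reads of 50 nt with a stranded TruSeq protocol, per the labels' protocols. The authors deposited raw read counts per gene for each library. Alignment and counting tools listed in the submitters' processing notes are HISAT2 2.1.0 and HTSeq 0.9.1, beside DESeq2 and the build GRCm38, and the strand setting of the counting is not given in the sources used here. Summary lines that name no gene stayed out of library sizes (reads in no gene, 5.923 to 7.917%; ambiguous, 1.175 to 1.214%). No pair of replicates agreed within sampling noise (chi-square per degree of freedom 1.81 to 7.47).

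Counts were filtered with filterByExpr of edgeR 4.0.16 in R 4.3.3, which left 12540 genes, scaled with TMM and fitted in a single model of 3 groups with 6 residual degrees of freedom. Differences were tested with the two-sided quasi-likelihood test (glmQLFit, robust, and glmQLFTest) and Benjamini-Hochberg adjustment over all tested genes, with a threshold of 0.05. Locations and exon lengths came from GENCODE M21, matched by identifier for 47224 of 47729 genes. Intervals and floors cover counting error only.

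The factors and the gene lists were chosen with earlier results of these data known. Genes were named by a rule: all 10 factors, the 2 genes most like each by level, up to 4 genes with the largest called change of at least 1 CPM in each list and comparison, and called neighbours of at least 1 CPM. A gene that this rule selects is not reported here. Lists share members (Snai1, Zeb1, Zeb2, Tgfbr2). Alternatives were RLE size factors, library sizes alone, no filter, a stricter filter (5 CPM in at least 3 libraries), limma voom (limma 3.58.1), DESeq2 1.42.0, the 2 groups alone, a replicate block, dispersion without the robust option and leaving out each library. Code was tested on simulated data.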

Additional observations from a re-analysis of the deposited data

Results flagged for a closer look

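Mkx differed from PAR in opposite directions in the 2 reserve populations. Its log2 fold change was 0.45 in FRC1 against PAR, where every FRC1 library lay above every PAR library, and −0.49 in SRC3 against PAR, where every SRC3 library lay below every PAR library. In SRC3 that separation was narrow, with replicate 3 at 5.16 CPM and PAR replicate 1 at 5.18. DESeq2 called neither difference from PAR, and both edgeR calls were lost when certain single libraries were left out. Both are differences from the same 3 PAR libraries. The difference between them is that of SRC3 against FRC1, a log2 fold change of −0.94 (SE 0.17). It ranged from −1.18 to −0.82 when single libraries were left out. No p is given and no call is taken as support, because the gene was chosen with these values known.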

How the results depend on the processing

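The fold changes of the 9 fitted factors kept their direction under every alternative that tested them, except the uncalled values of Osr1 in FRC1 against PAR and of Prrx1 and Twist1 in SRC3 against FRC1, which changed sign without a single library. No called value changed direction. With the stricter filter, which tests fewer genes, calls among fibroblast and fibro-adipogenic progenitor markers fell from 6 to 2 in FRC1 against PAR, from 8 to 4 in SRC3 against PAR and from 6 to 3 in SRC3 against FRC1. Without a filter, called neighbours in SRC3 against PAR went from 3 to 5; the cause was not tested. Leaving out single libraries gave 2327 to 3987 called genes, 13 to 25 other transcription factors and 1 to 4 neighbours in FRC1 against PAR, 5 to 9 fibroblast markers in SRC3 against PAR, and 3 to 7 neighbours in SRC3 against FRC1. Fits with 2 libraries in a group also have fewer samples.

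Replicate numbers showed no strong pairing of the samples, and these values cannot settle whether there was a weak one. Correlations of deviations were −0.07 to 0.118 for the same number (1 of 9 over 0.1) and −0.089 to 0.122 for different numbers. Between PAR and a reserve library they were 0.022 to 0.118 for the same number and −0.089 to 0.037 for different numbers. Between FRC1 and SRC3 they were −0.07 to 0.032 for the same number. With the number as a replicate block, 3560, 4798 and 4221 genes were called in place of 3550, 4758 and 4199, and Rab18 was lost (adjusted p 0.0646). Depth limits Meox2, Meox1 and Twist2 in PAR most.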
